A study of Homo sapiens with 10 samples.

Results

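The genes described here are 7 genes known from inherited forms of Parkinson disease: PINK1, PARK7, LRRK2, UCHL1, ATP13A2, VPS35 and FBXO7. They were chosen by name, though with earlier results of these data known. A gene was followed through the rows of the deposited array table that the platform annotation assigns to that gene symbol alone. Of the 7 genes, 6 had such a row, among 14232 genes with one. LRRK2 had no row, alone or together with other genes, and was not analysed here. PINK1 had 2 rows, of which the brighter one on average was kept.

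The cells were SH-SY5Y, an established human neuroblastoma line used as a model of dopamine- and noradrenaline-producing neurons. The study compared 5 arrays of untreated cells (controls 7, 11, 13, 17 and 19, by the numbers in the sample titles) with 5 arrays of cells treated with paraquat (8, 12, 14, 18 and 20). Paraquat is a herbicide that accepts electrons from cellular reductases and passes them to oxygen, and exposure to it has been studied as a risk factor for Parkinson disease. Neither group is labelled with any genetic change, so all members are the line's own genes. How much paraquat was used, and for how long, is not given in the sources used here. Total RNA was hybridised to Affymetrix Exon 1.0 ST arrays and values are on the log2 scale, where a difference of 1 is a doubling. Separate cultures are not stated for the arrays of a group, so p-values measure only the scatter of these arrays, and that scatter may be technical.

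As background, the products of these genes act in connected systems of cell maintenance. PINK1 is a kinase that gathers on damaged mitochondria and phosphorylates ubiquitin there, which marks them for removal by autophagy, and FBXO7, the substrate adaptor of an SCF ubiquitin ligase, has been linked to the same process. PARK7, also called DJ-1, protects against oxidative stress, and UCHL1 is a deubiquitinating enzyme that is very abundant in neurons. VPS35 is the core subunit of retromer, which sorts cargo from endosomes, ATP13A2 is a transporter that exports polyamines from lysosomes, and LRRK2 is a kinase of Rab GTPases.

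None of the 6 measured genes passed the test for a difference between paraquat and control. With limma and Benjamini-Hochberg adjustment over all 22011 rows, 0 of 6 had an adjusted p under 0.05, whereas 23.8% of all genes did (9.55% rose and 14.2% fell). The count stayed at 0 at an unadjusted p under 0.05, which 6747 of the 22011 rows met. It was also 0 with an exact two-sided permutation test over the arrays, whose p lay between 0.103 and 0.437. No share over all genes was computed for the permutation test. The arrays of the 2 groups overlapped for all 6 genes, while they did not overlap in 19.9% of all genes. Of the 6 changes, 4 were below 0 and 2 above, with a median of -0.11 against 0.00 over all genes. With so few genes a count of 0 is not read as a property of this set.

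The intervals set bounds on the changes. For 5 of the 6 genes the 95% confidence interval of the change lay within 0.689-fold and 1.31-fold, so a 2-fold change in either direction fell outside all 5 intervals. PARK7 was the exception, with an interval that reached 0.494-fold. These intervals are not adjusted for the number of genes, and a test that misses its threshold does not show that the level was the same in both groups.

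**Figure D1:**
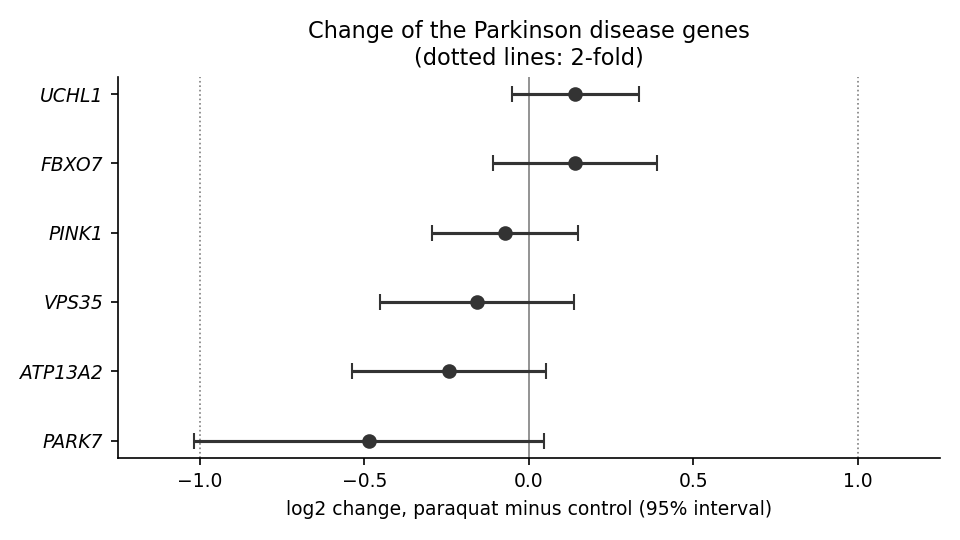
Log2 change (paraquat minus control) of the 6 Parkinson disease genes, with points for the estimate and bars for the 95% confidence interval from the limma fit on 5 arrays per group. All 6 intervals include 0, and only that of PARK7 reaches the dotted line at a 2-fold decrease.

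The regulatory sequences of 3 members are shown because they hold the core of the antioxidant response element, TGACNNNGC, bound by NRF2 in genes of the oxidative stress response. The windows are from RefSeq (GRCh38.p14), run 5′ to 3′ along the gene's strand from 250 bases before to 50 bases after the annotated start, and are in lower case with each match in capitals. That of PARK7 lies at chr1:7961461-7961760 on the plus strand, that of VPS35 at chr16:46689129-46689428 on the minus strand and that of FBXO7, the first of its 2 annotated starts, at chr22:32474561-32474860 on the plus strand.
PARK7: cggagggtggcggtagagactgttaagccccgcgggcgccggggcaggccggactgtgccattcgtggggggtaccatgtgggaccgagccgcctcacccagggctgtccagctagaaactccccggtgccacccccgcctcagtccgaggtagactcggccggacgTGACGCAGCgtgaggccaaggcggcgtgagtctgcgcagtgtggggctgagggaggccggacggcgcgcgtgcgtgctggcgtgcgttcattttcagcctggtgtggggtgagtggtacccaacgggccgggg
VPS35: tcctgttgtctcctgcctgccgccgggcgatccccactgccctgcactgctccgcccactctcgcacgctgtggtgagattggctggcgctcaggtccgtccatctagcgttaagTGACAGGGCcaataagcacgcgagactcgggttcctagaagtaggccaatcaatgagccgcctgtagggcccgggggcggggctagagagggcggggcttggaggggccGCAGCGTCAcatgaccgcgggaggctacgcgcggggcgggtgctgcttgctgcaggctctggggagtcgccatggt
FBXO7: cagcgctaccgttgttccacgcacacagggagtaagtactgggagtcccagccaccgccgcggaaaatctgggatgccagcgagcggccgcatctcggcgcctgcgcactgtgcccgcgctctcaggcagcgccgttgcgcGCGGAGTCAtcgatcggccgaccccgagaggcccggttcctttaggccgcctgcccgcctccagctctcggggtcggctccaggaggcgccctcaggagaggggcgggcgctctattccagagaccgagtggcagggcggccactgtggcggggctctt

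Both strands were searched in the 7 windows found for 6 members (PINK1 had no entry in the sequence table). TGACNNNGC occurred in 3 of the 7 windows, and in 13.35% of all 35116 windows of this length. The match in PARK7 began 83 bases before the start and read TGACGCAGC. VPS35 had 2 matches, TGACAGGGC beginning 135 bases before the start and, on the opposite strand, the stretch shown as GCAGCGTCA beginning 26 bases before it. The match in FBXO7 was also on the opposite strand, shown as GCGGAGTCA and beginning 109 bases before the start. The E-box CACGTG (7.256% of all windows), the ATF4 element TGATGNAAN (3.611%) and the AP-1 site TGANTCA (7.709%), which can overlap TGACNNNGC, had no match in the 7 windows. The windows of the members held 63.0% to 75.0% G and C and 25 to 35 CG dinucleotides, beside medians of 58.7% and 14 over all windows. A match of letters is a description and shows no binding, and the 3 genes with a match did not pass the test of expression.

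The 6 rows were all above the array median in control cells, at the 58.8th percentile of rows for PINK1 and the 99.0th for UCHL1. That place depends on how well the probes of a row bind as well as on the amount of transcript, so the levels of different genes were not compared. Array medians ranged from 6.78 to 6.93, and 20.0% of rows passed the test (8.51% upward and 11.5% downward). Control 11 deviated most from its group over all rows, with a residual SD of 0.358 against 0.206 to 0.291 for the other 9 arrays. Of 10 markers of noradrenergic neuroblastoma cells fixed for this work, 7 had a row, with control means of 6.31 to 12.44. After paraquat 6 of these were lower and 0 higher by the same test, and TH, tyrosine hydroxylase, had the lowest control mean. Of 6 mesenchymal markers 3 were higher, and of 5 leukocyte markers with a row 2 were higher (CD68 and CD14), while the defining leukocyte marker PTPRC was at 2.67 in control and 2.72 in paraquat arrays. None of 3 glial markers passed, at means of 3.25 to 5.63. The part of these shifts in the values of the Parkinson disease genes was not tested.

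PARK7 had the lowest point estimate of the 6 genes and the widest spread. The controls read 9.27, 10.23, 9.31, 9.49 and 9.96 in the order 7, 11, 13, 17 and 19, and the paraquat arrays 8.54, 9.75, 9.34, 9.12 and 9.07 in the order 8, 12, 14, 18 and 20. Control 11 was the highest of all 10 arrays and paraquat 8 the lowest, and paraquat 12 and 14 lay within the control range. The means were 9.65 ± 0.43 in control and 9.17 ± 0.44 in paraquat cells (SD, n = 5 each), a log2 change of -0.49 ± 0.24 (SE) with a 95% interval from -1.02 to 0.05, or 0.714-fold (adjusted p = 0.205). The control SD was at the 88.1st percentile of all rows, so the test had less precision here than for the other members. With 1 array left out the change lay between -0.33 (without paraquat 8, adjusted p = 0.387) and -0.63 (without paraquat 12, adjusted p = 0.0875), and none of these passed. With consecutive title numbers as a block, pairs that the labels do not state, the same change of -0.49 had an interval from -0.81 to -0.16 and passed (adjusted p = 0.0410). With control 11 and paraquat 12 both left out the change was again -0.49 (adjusted p = 0.129).

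UCHL1, whose protein has long served as a neuronal marker, was the member with the tightest control values. The controls read 12.39, 12.44, 12.54, 12.56 and 12.45, and the paraquat arrays 12.52, 12.45, 12.82, 12.65 and 12.65, in the same order of arrays. Paraquat 14, 18 and 20 were above every control, and paraquat 8 and 12 were inside the control range. The means were 12.48 ± 0.07 and 12.62 ± 0.14 (SD, n = 5 each), a change of 0.14 ± 0.09 (SE) with an interval from -0.05 to 0.33 (adjusted p = 0.328). The control SD was at the 5.86th percentile of rows.

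ATP13A2, the lysosomal polyamine transporter, was the only member whose call depended on a single array. The controls read 8.16, 7.75, 8.45, 8.27 and 8.36, and the paraquat arrays 7.95, 7.72, 8.05, 8.07 and 7.99. Control 11 and paraquat 12 were the lowest of their groups, and control 11 was the one control inside the paraquat range. The means were 8.20 ± 0.27 and 7.96 ± 0.14 (SD, n = 5 each), a change of -0.24 ± 0.13 (SE) with an interval from -0.54 to 0.05, or 0.845-fold (adjusted p = 0.258). Without control 11 the change was -0.36 and passed (adjusted p = 0.0303). Without control 11 and paraquat 12 it was -0.30 (adjusted p = 0.0450), with 4 controls between 8.16 and 8.45 and 4 paraquat arrays between 7.95 and 8.07. Control 11 is the array that deviated most over the whole table, and no label gives a reason to leave it out. Leaving out any other single array gave values from -0.18 to -0.27, none of which passed.

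PINK1, the mitochondrial kinase, had the smallest change. The controls read 7.50, 7.71, 7.52, 7.46 and 7.34, and the paraquat arrays 7.43, 7.70, 7.38, 7.34 and 7.32. Control 11 and paraquat 12 were the highest of their groups and nearly equal to each other, and the groups overlapped over most of their range. The means were 7.50 ± 0.13 and 7.43 ± 0.16 (SD, n = 5 each), a change of -0.07 ± 0.10 (SE) with an interval from -0.29 to 0.15, or 0.951-fold (adjusted p = 0.701). With 1 array left out it lay between -0.02 (without control 11) and -0.14 (without paraquat 12), and none of these passed.

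The other row annotated to PINK1 had the opposite sign. It read 7.31, 7.27, 7.06, 7.03 and 6.66 in the controls and 7.41, 7.18, 7.25, 7.13 and 7.10 in the paraquat arrays. Its means were 7.07 ± 0.26 and 7.22 ± 0.12 (SD, n = 5 each), a change of 0.15 ± 0.13 (SE, adjusted p = 0.490), so neither row passed. The 20 rows nearest to it by identifier whose genes have a strand in RefSeq were all on the minus strand of chromosome 1, and the 20 nearest to the kept row all on the plus strand. PINK1 lies on the plus strand, and RefSeq also lists an antisense gene, PINK1-AS, overlapping it. Whether the lower row measures PINK1 or transcripts of the opposite strand is not settled by the annotation.

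VPS35, the retromer subunit, varied more among the treated arrays than among the controls. The controls read 9.84, 9.89, 9.82, 9.82 and 9.56, and the paraquat arrays 9.92, 9.32, 9.92, 9.42 and 9.56. Paraquat 8 and 14 were above all controls, paraquat 12 and 18 were below all of them, and paraquat 20 lay just below the lowest, control 19. The means were 9.79 ± 0.13 and 9.63 ± 0.28 (SD, n = 5 each), a change of -0.16 ± 0.13 (SE) with an interval from -0.45 to 0.14 (adjusted p = 0.496).

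FBXO7, the SCF adaptor, had spreads in control and paraquat arrays that differed less than those of VPS35. The controls read 10.01, 10.23, 10.33, 10.25 and 9.99, and the paraquat arrays 10.49, 10.08, 10.53, 10.20 and 10.22. Paraquat 8 and 14 were again above every control, and the other 3 paraquat arrays were inside the control range. The means were 10.16 ± 0.15 and 10.30 ± 0.20 (SD, n = 5 each), a change of 0.14 ± 0.11 (SE) with an interval from -0.11 to 0.39 (adjusted p = 0.469).

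**Figure D2:**
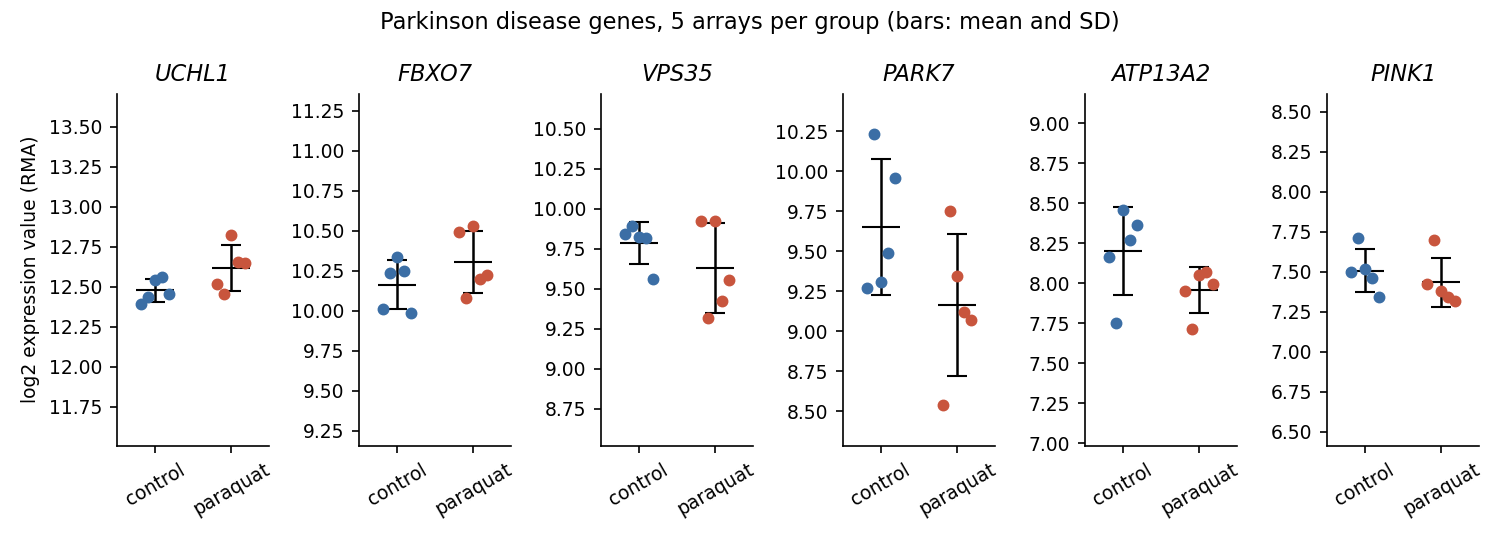
Log2 expression value of the 6 genes in each array (points), with the mean and SD of each group of 5 arrays (bars). Every panel spans the same 2.2 log2 units, so that spreads can be compared between genes while levels cannot. The groups overlap in every panel, and PARK7 has the widest scatter.

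Deviations from the group means show how the genes varied beside the treatment. In control 11 PARK7 stood 0.58 above its group mean, PINK1 0.20 above and ATP13A2 0.45 below. Paraquat 12 had deviations of the same signs, 0.59, 0.27 and -0.24. Over the 10 arrays the deviations of PINK1 and ATP13A2 had a Pearson r of -0.80, and those of VPS35 and FBXO7 an r of 0.86. These are descriptions of 2 of 15 gene pairs, picked after all were computed, and 2 arrays, control 11 and paraquat 12, hold many of the largest deviations. No test was made of them.

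**Figure D3:**
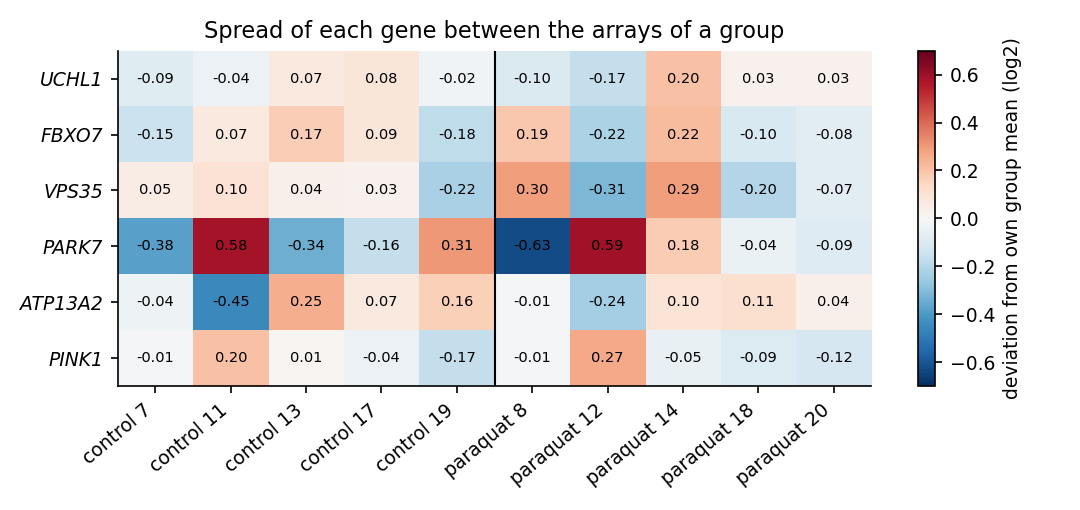
Deviation of each gene from the mean of its own group (log2, colour and number) in the 5 control and 5 paraquat arrays, with genes as rows. PARK7 is raised by 0.58 in control 11 and 0.59 in paraquat 12, while ATP13A2 is lowered by 0.45 and 0.24 in the same arrays.

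Genes with the profile most like each member over the 10 arrays are given as a description, since among 14232 genes high values of r arise with so few arrays. For PARK7 they were CDKN1B (r = 0.97) and PSMG3 (0.96), for ATP13A2 FSCN1 and PCIF1 (both 0.98), and for VPS35 TMTC3 (0.98) and SCAF11 (0.97). For UCHL1 they were NAA25 (0.96) and ARCN1 (0.95), for PINK1 PIGC (0.95) and RAB5IF (0.92), and for FBXO7 DPP8 (0.94) and RAB3IP (0.93). None of these 12 genes passed the test between the groups. By deviations from the group means the nearest genes were ACOT9 and GSTO1 for PARK7 (both 0.97), BEGAIN (0.995) and ZFHX3 (0.98) for ATP13A2, and TMTC3 and BMPR1B (both 0.98) for VPS35. They were TBCEL (0.97) and TAP1 (0.94) for UCHL1, TTC19 (0.97) and CCL24 (0.96) for PINK1, and MEIS2 (0.97) and ARHGEF6 (0.96) for FBXO7. Of these, TBCEL (adjusted p = 0.00760) and TAP1 (0.00112) were higher after paraquat, and BMPR1B (0.000469) and MEIS2 (6.40e-05) lower.

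Genes that work with the members, their relatives and other genes of related pathways were read from 9 lists. All are called partner genes here for short. Of 166 genes listed, 134 had a row, of which 19 rose, 17 fell and 98 did not pass. The share that passed was 26.9%, near the 23.8% of all genes, and the median change was -0.01 against 0.00 over all genes. So the partner genes listed here passed about as often as other genes, and the changes below are those of single genes. The lists were chosen with earlier results of these data known, so this share describes the lists only. All 36 partner genes that passed kept their sign with each array left out, with control 11 and paraquat 12 both left out, and under both other scalings, and 26 passed in all of those settings.

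In the mitophagy list, genes that recognise or clear damaged mitochondria, 4 of 24 rose and 3 fell, at a median of 0.01. OPTN, an autophagy receptor for ubiquitin-marked mitochondria, rose from 8.77 ± 0.32 to 9.62 ± 0.08 (adjusted p = 0.00134), with all paraquat arrays above all controls. TBK1, the kinase that phosphorylates OPTN, rose by 0.56 (adjusted p = 0.0140), and CALCOCO2, another such receptor, by 0.46 (adjusted p = 0.00721). VDAC3, a channel of the outer mitochondrial membrane, fell from 11.00 ± 0.40 to 10.24 ± 0.23 (adjusted p = 0.0133). The other 2 that fell were TOMM22, a subunit of the protein import pore of that membrane, by 0.51 (adjusted p = 0.00799), and BNIP3L, a mitophagy receptor that works without ubiquitin, by 0.31 (adjusted p = 0.0343). The BNIP3L call ended without any 1 array other than control 7 or paraquat 14, without control 11 and paraquat 12 together, and after median centring (adjusted p up to 0.0854). BCL2L13, a mitophagy receptor of the same kind, was the fourth that rose, by 0.34 (adjusted p = 0.0105).

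Among 12 other genes linked to inherited Parkinson disease that had a row, 1 rose and 1 fell, at a median of 0.02. RAB39B, a Rab GTPase of endosomes, rose from 7.42 ± 0.13 to 8.38 ± 0.13 (adjusted p = 4.19e-05), with all paraquat arrays above all controls. HTRA2, a protease of the mitochondrial intermembrane space, fell by 0.47 (adjusted p = 0.0195), and that call ended without paraquat 20 (adjusted p = 0.0514). EIF4G1 passed downward only without paraquat 14 (-0.37), and RAB32 upward only without control 11 (0.47), among the settings with 1 array left out.

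Of 18 retromer and sorting genes, 0 rose and 2 fell, at a median of -0.04. They were SORL1, a sorting receptor carried by retromer, which fell from 6.82 ± 0.25 to 6.03 ± 0.35 (adjusted p = 0.00805), and TBC1D5, a Rab7 GTPase-activating protein that binds retromer, which fell from 8.39 ± 0.13 to 7.67 ± 0.35 (adjusted p = 0.00715). The arrays did not overlap for either. The subunits that join VPS35 in the retromer trimer did not pass, with changes of 0.17 for VPS26A, -0.41 for VPS26B and -0.36 for VPS29. With 1 array left out, 2 to 5 genes of this list fell, the 5 without paraquat 14, where VPS26B (-0.51), SNX27 (-0.33) and WASHC5 (-0.45) also passed. Without paraquat 12 SNX3 (-0.49) passed as well and RAB7A rose (0.48), and WASHC5 also passed without control 11 (-0.42).

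LRRK2 was not measured, and of the 16 genes around it that were, 1 rose and 3 fell, at a median of -0.06. Its paralogue LRRK1 had a change of -0.15 (adjusted p = 0.516). RAB3C, a Rab GTPase of synaptic vesicles, fell from 7.85 ± 0.14 to 7.13 ± 0.33 (adjusted p = 0.00607), and its relative RAB3A by 0.73 (adjusted p = 0.0292). RAB5A, a Rab GTPase of early endosomes, rose by 0.44 (adjusted p = 0.0319), and RAB8A, a substrate of LRRK2, fell by 0.44 (adjusted p = 0.0124). The RAB3A call ended without control 13, 17 or 19 or paraquat 8, 12 or 14 (adjusted p up to 0.0713). That of RAB5A ended without control 7, 13, 17 or 19 or paraquat 12, 14 or 20 (up to 0.0741).

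Of 3 ubiquitin hydrolase and ubiquitin genes with a row, UCHL3 fell and none rose, at a list median of -0.41. UCHL3, the closest relative of UCHL1, went from 9.25 ± 0.32 to 8.66 ± 0.18 (adjusted p = 0.0203), where the point estimate for UCHL1 was 0.14. That call ended without paraquat 18 or 20 (adjusted p up to 0.0558), and the difference between the genes was not tested.

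Of 7 genes of glyoxal detoxification and glycation repair, tasks that have also been ascribed to PARK7, 1 rose and 1 fell, at a median of -0.14. GATD3, a mitochondrial protein of the same superfamily as PARK7, fell from 9.02 ± 0.13 to 8.55 ± 0.13 (adjusted p = 0.00423), with no overlap of the arrays, though near-identical annotated copies of this gene make its value uncertain. GATD1, another member of that superfamily, rose by 0.31 (adjusted p = 0.0392), a call that ended without control 7, 11, 17 or 19 or paraquat 8, 14, 18 or 20 (adjusted p up to 0.0967). GLO1, which is glyoxalase 1, had a change of -0.47 (adjusted p = 0.0559). It passed without control 19 or paraquat 14 (-0.53 each) and after quantile normalization (-0.42, adjusted p = 0.0293).

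Around FBXO7, 2 of 11 genes rose and 1 fell, at a median of 0.00. FBXW7, an F-box protein that sends cyclin E and MYC for degradation, rose from 6.86 ± 0.15 to 8.28 ± 0.23 (adjusted p = 1.67e-05). SKP2, the F-box protein that targets the cell cycle inhibitor p27, fell from 10.45 ± 0.15 to 9.54 ± 0.29 (adjusted p = 0.000926), and BIRC2, an inhibitor of apoptosis, rose by 0.61 (adjusted p = 0.00405). The arrays did not overlap for any of the 3. The changes of the SCF core genes CUL1 and SKP1 were -0.01 and 0.20 and did not pass. NEDD8, the ubiquitin-like activator of cullins, passed downward only without control 7 (-0.45), among the settings with 1 array left out. CCND1 of the same list had a change of 0.28 (adjusted p = 0.0675). It passed upward after quantile normalization (0.37, adjusted p = 0.00999) and after median centring (0.33, adjusted p = 0.0311).

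In the list of P5-type ATPases and polyamine genes, which holds the relatives of ATP13A2 and the enzymes of its cargo, 4 of 15 rose and 2 fell, at a median of 0.04. SAT1, which acetylates spermidine and spermine for export, had the largest change of all the partner genes and rose from 5.95 ± 0.59 to 8.31 ± 0.49 (adjusted p = 0.000254), or by 2.36 on the log2 scale. SMOX, the oxidase that turns spermine into spermidine and hydrogen peroxide, rose from 6.98 ± 0.16 to 7.91 ± 0.13 (adjusted p = 8.94e-05). OAZ2, an antizyme that restrains polyamine synthesis, fell by 0.78 (adjusted p = 0.0262), and the call ended without any 1 of paraquat 8, 14, 18 and 20 (up to 0.0652). ATP13A3, a polyamine transporter related to ATP13A2, rose by 0.63 (adjusted p = 0.0179), which did not pass without control 11 and paraquat 12 (adjusted p = 0.0511). The others that passed were SAT2, which rose by 0.62 (adjusted p = 0.0139), and AMD1, which fell by 0.57 (adjusted p = 0.0138).

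Of 28 lysosomal genes, 6 rose and 3 fell, at the highest list median, 0.17. LAMP3, a lysosomal membrane protein, rose from 5.39 ± 0.25 to 6.71 ± 0.25 (adjusted p = 0.000100). TFE3, a transcription factor of lysosome formation, rose from 8.03 ± 0.13 to 8.94 ± 0.13 (adjusted p = 7.00e-05), and NPC1, a cholesterol exporter of the lysosome, from 8.18 ± 0.09 to 8.86 ± 0.10 (adjusted p = 0.000181). The arrays did not overlap for these 3. MITF, a relative of TFE3, fell by 0.65 (adjusted p = 0.000407), and TFEB, the third member of that family here, had a change of 0.18 (adjusted p = 0.165). The proton pump subunit ATP6V1A and the ceramidase ASAH1 were the other 2 that fell, by 0.60 and 0.47. With 1 array left out, 5 to 8 genes of this list rose and 3 to 4 fell.

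**Figure D4:**
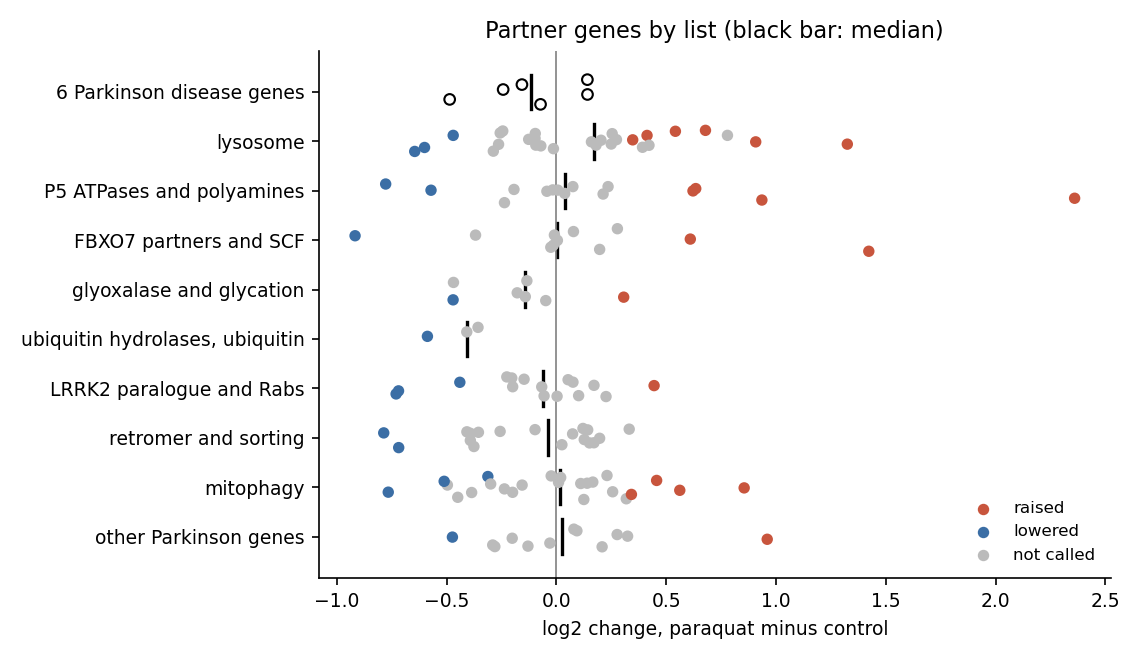
Log2 change (paraquat minus control) of the 134 partner genes with a row, grouped by list, coloured by the limma call at an adjusted p under 0.05 (red raised, blue lowered, grey not called), with black bars for list medians. Open circles are the 6 Parkinson disease genes, which lie between -0.49 and 0.14, whereas SAT1 among the polyamine genes reaches 2.36.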

How the data were processed

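The deposited table holds log2 values that the authors made with RMA, which corrects background, equalises array distributions and summarises probes, per the submitters' processing notes; the log2 scale was read from the range of values (1.07 to 14.37). No source used here gives the software version, filters or genome build. Each row sums over a gene, so altered use of single exons is not seen, and RMA shrinks changes of dim rows. No detection calls were used here.

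Groups were fitted with limma 3.58.1 (R 4.3.3) on the deposited values, with no covariate, filter or rescaling. Tests were two-sided, Benjamini-Hochberg adjusted over all 22011 rows and called at 0.05; limma was tested on simulated data. Errors are moderated SE or SD over 5 arrays, and the number of arrays limits precision (median SE 0.13). Exact permutation over 5 against 5 arrays cannot go below p = 0.00794. For each gene the brightest row with 1 symbol was used, and symbols came from RefSeq through gene identifiers. Up to 3 passing genes per list are named by size. CALCOCO2, TOMM22, BNIP3L, BCL2L13, ATP13A3, SAT2, AMD1, RAB8A, MITF, ATP6V1A and ASAH1 were added after their values were seen. So were the named genes that did not pass. The members and lists were chosen with earlier results of these data known. Alternatives were other scalings, a filter on dim rows, other variance models, array weights, a block of consecutive title numbers, arrays left out, a threshold of 0.01 and the mean of the PINK1 rows.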

Additional observations from a re-analysis of the deposited data

Results flagged for a closer look

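In 14 groups of 5 arrays (7 rows, 2 groups each), 2 held an array far from the other 4 by Dixon's criterion, which chance meets in about 1 of 20 groups. For PINK1, paraquat 12 read 7.70 where the other paraquat arrays read 7.32 to 7.43. For VPS35, control 19 read 9.56 where the other controls read 9.82 to 9.89. Without paraquat 12 the PINK1 change was -0.14 (adjusted p = 0.359), and without control 19 the VPS35 change was -0.21 (adjusted p = 0.360). Both calls stayed as they were.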

How the results depend on the processing

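UCHL1, VPS35 and FBXO7 kept their sign and failed the threshold in all 19 alternatives, with changes of 0.09 to 0.21, -0.23 to -0.05 and 0.09 to 0.21. The 19 include the threshold of 0.01 and the permutation test, which reuse the same change and could not alter its sign. A gene that missed 0.05 could also not pass at 0.01. PARK7 lay between -0.63 and -0.33 and passed in 1 of 19, a block of consecutive title numbers (-0.49, adjusted p = 0.0410). The deviations of consecutive numbers correlated at 0.09 (13 with 14) to 0.46 (11 with 12), all above 0. Deviations sum to 0 within each group, so over all other combinations of a control and a paraquat array the covariances were below 0 on average. Correlations of those combinations were not computed singly. Whether the numbers mark pairs was not tested. The fit without the block was reported because the labels do not state such pairs. With the block 2226 rows rose and 3153 fell. ATP13A2 passed in 3 of 19: with array weights (-0.31, adjusted p = 0.0391), without control 11 and paraquat 12 (-0.30, adjusted p = 0.0450) and without control 11 (-0.36). With the block its change of -0.24 had an interval from -0.44 to -0.04, which leaves out 0, but it did not pass (adjusted p = 0.0795). With 1 array left out its range was -0.36 to -0.18, and its adjusted p ranged from 0.0303 to 0.462 over the alternatives. The mean of both rows annotated to PINK1 had the reverse sign (0.039, adjusted p = 0.858), since the rows differ in sign. Whether the lower row measures PINK1 at all is not settled. At an adjusted p under 0.01, 1068 rows rose and 1424 fell, and 11 partner genes rose and 8 fell. Of the partner genes, 30 fell with array weights and 27 with the block, against 17; the cause was not tested. With 1 array left out, 16 to 22 partner genes rose and 13 to 21 fell. Median centring gave 2241 raised and 2211 lowered rows, against 1873 and 2524.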
